A study of Drosophila melanogaster with 11 samples.

Results

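The comparison set spen-depleted enteroblasts against normal intestinal stem cells of the adult Drosophila midgut, and asked which genes still separate these cells. It used 6 of the 11 libraries of the series, chosen by their group labels, 3 of SPEN-EB and 3 of WT-ISC. The SPEN-EB flies carried UAS-spen RNAi together with esg>GAL4, tubGAL80.ts, UAS-RFP and nre-GFP, and the WT-ISC flies were wild-type with the same driver, repressor and reporters. All were females labelled as 5 days old adults and were moved from 18 to 29°C for 2 days. SPEN-EB cells were sorted as diploid and positive for RFP and GFP, and WT-ISC cells as diploid and positive for RFP. The esg driver acts in stem cells and enteroblasts alike, and the hairpin came from a single RNAi line. Cell type and genotype change together between these groups and cannot be told apart by this comparison, so the levels in SPEN-ISC and WT-EB stand beside it where they bear on a gene.

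In the fly midgut, an intestinal stem cell (ISC) divides to renew itself and to give an enteroblast (EB), the diploid precursor of the absorptive enterocyte. Delta on the stem cell activates Notch in the enteroblast, where genes of the E(spl) complex respond, while other daughters become enteroendocrine cells, which secrete peptide hormones. Spen is a large nuclear protein with RNA recognition motifs and a C-terminal SPOC domain, known from the regulation of transcription and RNA.

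Levels are given in FPKM, fragments per kilobase of gene scaled to the library's size, so that they can be set side by side between genes. A fold change is on the log2(FPKM + 0.5) scale, SPEN-EB over WT-ISC, and understates the change of low genes. A gene was called at an adjusted p below 0.05 with limma. Of 14595 genes in the table, 6199 reached 1 FPKM in at least 3 of the 6 libraries and were tested. Of these, 186 were called (3% of the tested genes), 69 higher in SPEN-EB (1.11%) and 117 lower (1.89%), while 673 had an unadjusted p below 0.05. Leaving out SPEN-EB replicate 3 gave 113 calls and leaving out SPEN-EB replicate 2 gave 121. The 117 falls became 66 without SPEN-EB replicate 1, and the 69 rises became 43 without SPEN-EB replicate 2. Over all tested genes the median was 0.02. The called genes had a smallest absolute log2 fold change of 1.39 and a median of 2.18, and 42 of them rose and 78 fell by more than 4-fold. In unscaled FPKM the groups did not overlap for 1004 tested genes (16.2%), all 186 called genes among them. A gene below 1 FPKM in every library of 1 group passed the filter only through the other group. For such a gene the filter itself set the direction and kept the groups from overlapping.

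The exon bins held 28344962 to 31587444 counts in SPEN-EB and 28602107 to 30223391 in WT-ISC. Genes at 1 FPKM or more numbered 5437 to 6441 in SPEN-EB and 5106 to 6838 in WT-ISC, with the fewest in SPEN-EB replicate 2 and WT-ISC replicate 1. Summed markers of other tissues reached at most 1.71 FPKM in SPEN-EB and 1.88 in WT-ISC for Malpighian tubule, 4.33 and 5.35 for fat body, and 0.919 and 1.499 for germline. Visceral muscle markers summed to 3.63 to 9.81 FPKM in SPEN-EB and 4.24 to 25.3 in WT-ISC, and haemocyte markers to 16.8 to 49.97 in SPEN-EB and 6.37 to 26.9 in WT-ISC. In sorted bulk RNA, fewer cells of a type and less RNA per cell cannot be told apart.

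Reads of spen were more numerous in SPEN-EB, mainly in a single exon bin. This bin, E014 (BDGP5, chromosome arm 2L, 187482 to 199575), holds the target of the hairpin and had 720, 393 and 406 counts in SPEN-EB, against 6, 101 and 39 in WT-ISC. It made up 61.3, 81.9 and 78.2 percent of the spen counts in SPEN-EB and 4.44, 31.3 and 23.4 percent in WT-ISC. Every SPEN-EB library lay above every WT-ISC library in both measures. Outside E014, spen had 454, 87 and 113 counts in SPEN-EB, against 129, 222 and 128 in WT-ISC. SPEN-EB replicate 1 was above every WT-ISC library there, and replicates 2 and 3 were below every one. The ranges thus overlapped, and a fall of the endogenous transcript was not seen there in the group as a whole. At gene level spen stood at 2.24, 0.9202 and 0.936 FPKM in SPEN-EB and 0.255, 0.6198 and 0.327 FPKM in WT-ISC, too low for the test.

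Peptide hormones of enteroendocrine cells gave the largest falls. Of 14 such genes measured, 10 were tested, 9 were called lower and 0 higher in SPEN-EB, and their median log2 fold change was -3.53. Their levels summed to 64.9, 28.3 and 26.8 FPKM in SPEN-EB, against 6807, 4102 and 3262 FPKM in WT-ISC. CG13565, now named Orcokinin, was at 5.83, 2.49 and 1.24 FPKM in SPEN-EB and at 4469.6, 2269 and 1859 FPKM in WT-ISC. It was abundant in every WT-ISC library and below 6 FPKM in every SPEN-EB library, and its log2 fold change was -9.66 ± 0.61 (SE, adjusted p = 2.1e-05). The count of falls was 6 without any single SPEN-EB library and 5 with edgeR on counts.

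npf, which encodes neuropeptide F, was at 8.86, 7.11 and 2.25 FPKM in SPEN-EB, against 2063, 1459.5 and 1246 FPKM in WT-ISC (-8.02 ± 0.57, adjusted p = 2.1e-05). Ast-C, the allatostatin C gene, was at 1.35, 0.489 and 0.735 FPKM in SPEN-EB and at 109, 185 and 18.8 FPKM in WT-ISC (-5.78 ± 0.70, adjusted p = 0.0014). Tk, the tachykinin gene, was at 0.824, 0.284 and 0.185 FPKM in SPEN-EB and at 39.5, 53.4 and 6.18 FPKM in WT-ISC (-4.74 ± 0.71, adjusted p = 0.0045). WT-ISC replicate 3 was the lowest stem cell library for all 3 genes, yet stayed above every SPEN-EB library. Tk lost its call without WT-ISC replicate 2 (adjusted p = 0.053), and Tk and Ast-C lost theirs with a covariate of genes detected per library, added after seeing the data (0.076 and 0.057). CCHa1, another gut peptide, was at 0.0522, 0.313 and 0.6801 FPKM in SPEN-EB and 30.9, 13.9 and 14.7 FPKM in WT-ISC and fell by 4.54 on the log2 scale. Tk and CCHa1 were below 1 FPKM in every SPEN-EB library, so that the filter set their direction. Of the remaining members, Ast, Gpb5, CCHa2 and Dh31 were called with log2 fold changes of -2.53, -2.47, -2.20 and -2.14, and Nplp2 was not called at -1.67 (adjusted p = 0.093). Dh31 was likewise below 1 FPKM in every SPEN-EB library, so that the filter set its direction.

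Enzymes that cut and amidate such peptides were lower as well. Of 21 measured genes of peptide processing and dense core vesicles, 7 were tested, 5 were called lower and 0 higher, with a median of -2.85. 7B2, the helper protein of the convertase amon, was at 0.847, 0.961 and 0.895 FPKM in SPEN-EB and at 277, 108 and 89.03 FPKM in WT-ISC (-6.60 ± 0.56, adjusted p = 0.00018). The SPEN-EB libraries were nearly equal, while the WT-ISC libraries spread widely and did not come near them. Pal2, a lyase of peptide amidation, fell by 5.20, amon by 3.51, the carboxypeptidase svr by 2.85 and the vesicle protein IA-2 by 2.49 on the log2 scale. Phm, the monooxygenase that acts before the lyase, was not called (-1.41, adjusted p = 0.063). The count of falls was 2 with a filter at 5 FPKM, 8 with edgeR and 11 with DESeq2. 7B2, Pal2, amon and IA-2 were below 1 FPKM in every SPEN-EB library and passed the main filter through WT-ISC alone. Their direction was thereby set, which limits what the count and the median show.

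**Figure D1:**
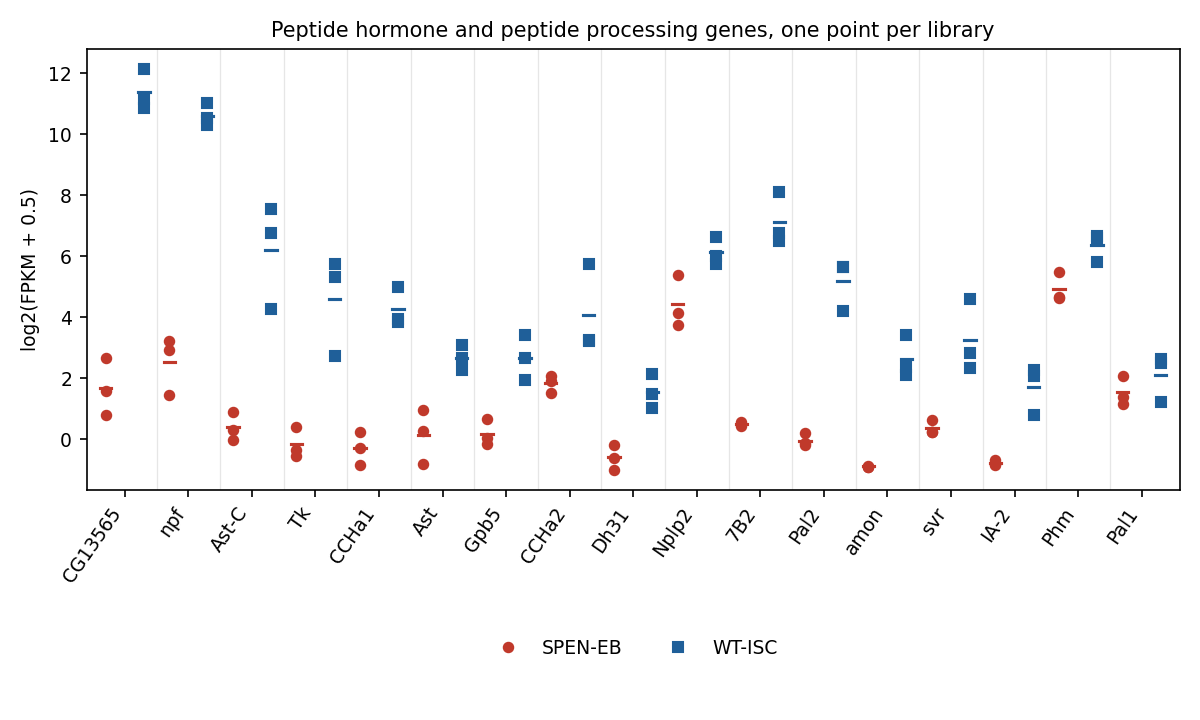
Level, as log2(FPKM + 0.5), of the tested peptide hormone genes and peptide processing genes in the 3 SPEN-EB and the 3 WT-ISC libraries, 1 point per library with the group mean as a bar. All SPEN-EB libraries lie below all WT-ISC libraries for every gene shown except Pal1. Genes below 1 FPKM in every SPEN-EB library passed the filter through WT-ISC alone.

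Among 26 transcription factors of midgut fate, 11 were tested and 2 were called, both lower, with a median of -0.12 over the tested members. tap, a bHLH factor, was at 0.0852, 0.0425 and 0.0396 FPKM in SPEN-EB and at 18.97, 24.7 and 5.64 FPKM in WT-ISC (-4.68 ± 0.52, adjusted p = 0.00032). sc, the proneural factor scute, was at 0.284, 0.252 and 0.293 FPKM in SPEN-EB, against 2.58, 8.46 and 2.95 FPKM in WT-ISC (-2.53 ± 0.41, adjusted p = 0.0036). Neither gene overlapped between the groups, which the filter had set, as both were below 1 FPKM in every SPEN-EB library. sc was nearly flat across the SPEN-EB libraries. pros, the defining factor of enteroendocrine cells, was at 0.00206, 0 and 0 FPKM in SPEN-EB and 0.0289, 0.284 and 0.0229 FPKM in WT-ISC. The part of enteroendocrine cells in the RFP gate in these falls was not tested.

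The hormones were low in both enteroblast groups and high in most stem cell libraries. Their sum was 121 and 153 FPKM in WT-EB and 885, 4277 and 2818 FPKM in SPEN-ISC. CG13565 was at 4.27 and 6.29 FPKM in WT-EB and at 736, 1414 and 2478 FPKM in SPEN-ISC. tap was at 0 and 0.0415 FPKM in WT-EB and at 6.04, 13.6 and 16.5 FPKM in SPEN-ISC. An exception was Nplp2, at 41.5, 12.8 and 17.1 FPKM in SPEN-EB and 100.4 and 122 FPKM in WT-EB.

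Of the 10 largest falls, Cpr51A and CG14989 belong to none of these lists. Cpr51A, which encodes a cuticle protein, was at 5.86, 2.38 and 2.16 FPKM in SPEN-EB and 125, 76.2 and 74.1 FPKM in WT-ISC (-4.59 ± 0.48, adjusted p = 0.00028). CG14989 was at 0.4197, 0.357 and 0.622 FPKM in SPEN-EB and 24.6, 30.8 and 8.34 FPKM in WT-ISC (-4.30 ± 0.49, adjusted p = 0.00032). The groups did not overlap for either gene. The filter had set this for CG14989, which was below 1 FPKM in every SPEN-EB library. Cpr51A was at 12.4 and 5.38 FPKM in WT-EB, and every SPEN-ISC library lay between its SPEN-EB and WT-ISC ranges. CG14989 was at 0.0739 and 0.0606 FPKM in WT-EB and at 3.63, 3.25 and 4.84 FPKM in SPEN-ISC.

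Markers of the stem cell were scarce in both groups. Dl, the Notch ligand, was at 0.155, 0.00859 and 0.0959 FPKM in SPEN-EB and at 0.172, 1.175 and 0.554 FPKM in WT-ISC. spdo, a regulator of Notch trafficking, was at 0.587, 0.239 and 0.9496 FPKM in SPEN-EB and at 0.651, 5.52 and 2.19 FPKM in WT-ISC. chn, a zinc finger factor, was at 0.1402, 0.0295 and 0.0549 FPKM in SPEN-EB and at 0.4496, 1.73 and 0.772 FPKM in WT-ISC. Dl and chn did not overlap between the groups, spdo did, and none of the 3 passed the filter. In WT-EB, Dl was at 0 and 0.0167 FPKM, spdo at 0.206 and 0.169 FPKM and chn at 0.0140 and 0.0287 FPKM. Every WT-ISC library was above both WT-EB libraries for all 3 genes. The study lists the 3 among genes higher in its wild-type stem cells than in its wild-type enteroblasts. The WT-ISC label comes from the sort, and at such low values these genes give it limited support here.

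Genes marking both cell types varied more within the groups than between them. esg, whose enhancer drives the system, was at 29.98, 5.29 and 12.6 FPKM in SPEN-EB and at 4.89, 100.0 and 20.1 FPKM in WT-ISC (-0.72 ± 0.76, adjusted p = 0.93). Sox21a, a factor of the progenitors, was at 23.7, 4.13 and 12.8 FPKM in SPEN-EB and at 2.97, 32.8 and 6.51 FPKM in WT-ISC (0.34 ± 0.65, adjusted p = 0.98). Both were lowest in SPEN-EB replicate 2 and WT-ISC replicate 1, the libraries with the fewest genes at 1 FPKM. The sign of esg turned to 0.15 without WT-ISC replicate 2, and that of Sox21a to -0.13 without SPEN-EB replicate 1 and -0.15 without WT-ISC replicate 1. N, the receptor, was at 1.45, 0.178 and 0.447 FPKM in SPEN-EB and at 0.16, 2.57 and 0.6002 FPKM in WT-ISC, below the filter.

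Genes of mitosis were lower in SPEN-EB. Of 38 measured, 24 were tested, 11 were called lower and 0 higher, all 24 had a negative fold change, and the median was -1.48. cdc2, the mitotic kinase Cdk1, was at 3.98, 2.09 and 2.69 FPKM in SPEN-EB and at 18.2, 25.3 and 25.6 FPKM in WT-ISC. Every SPEN-EB library lay far below the lowest WT-ISC library (-2.77 ± 0.33, adjusted p = 0.00041). The count of falls was 7 without SPEN-EB replicate 1 and likewise without WT-ISC replicate 3, and 20 with DESeq2.

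Spc25, a subunit of the kinetochore's Ndc80 complex, was at 2.63, 2.39 and 3.45 FPKM in SPEN-EB, against 17.6, 16.98 and 15.6 FPKM in WT-ISC (-2.36 ± 0.35, adjusted p = 0.0023). borr, a member of the chromosomal passenger complex, was at 1.64, 0.977 and 2.696 FPKM in SPEN-EB, against 10.96, 11.5 and 9.39 FPKM in WT-ISC (-2.34 ± 0.38, adjusted p = 0.00399). mad2, of the spindle checkpoint, was at 3.99, 4.21 and 4.23 FPKM in SPEN-EB, against 15.3, 22.2 and 17.7 FPKM in WT-ISC (-1.98 ± 0.32, adjusted p = 0.0038). The groups did not overlap for these 3 genes, and mad2 was not called with edgeR on counts (adjusted p = 0.07). The other called members were CycB (-2.16), pim (-2.14), cid (-2.13), tum (-1.82), ial (-1.60), Incenp (-1.57) and Ndc80 (-1.57). polo, another mitotic kinase, was at 1.52, 1.16 and 1.302 FPKM in SPEN-EB and at 1.596, 12.8 and 5.01 FPKM in WT-ISC and was not called (-1.50 ± 0.46, adjusted p = 0.13). It was called without WT-ISC replicate 1, the stem cell library closest to SPEN-EB (-1.99, adjusted p = 0.0196).

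Further spindle and kinetochore genes were called outside the list and were chosen after their values were seen. The kinetochore genes Nnf1a and Kmn1 fell by 1.61 and 1.54 on the log2 scale, the augmin genes msd1 and msd5 by 2.10 and 1.97, and Cks30A, a partner of Cdk1, by 2.51. DNA replication gave no call. Of its 39 measured genes, 32 were tested with limma and 31 had a negative fold change, with a median of -0.49 and a lowest value of -1.24 for Mcm5, a subunit of the replicative helicase. At an unadjusted p below 0.05 there were 8, and edgeR called 0 and DESeq2 1.

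**Figure D2:**
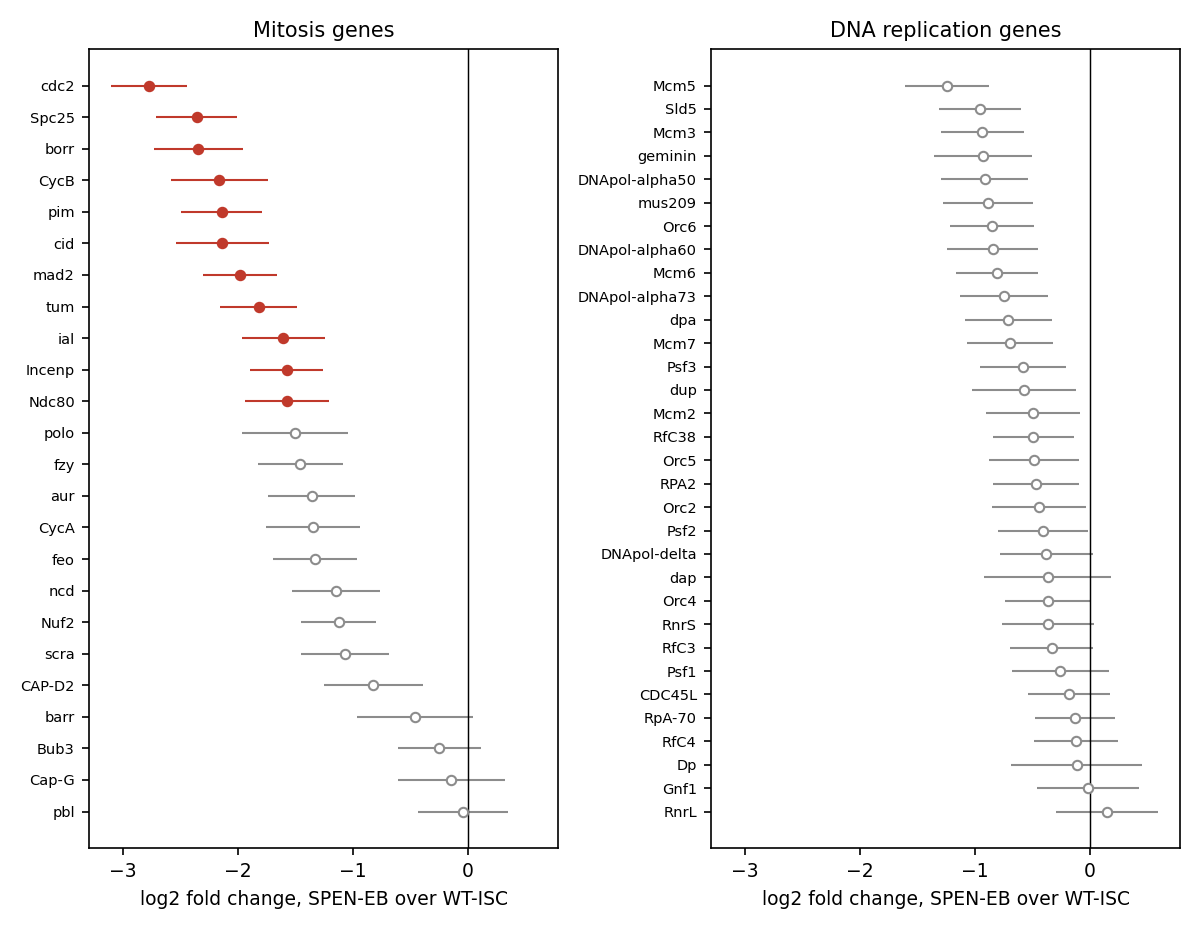
Log2 fold change, SPEN-EB over WT-ISC, with its standard error for the 24 tested genes of mitosis and the 32 of DNA replication, with called genes filled in red. The 11 called genes, from cdc2 at -2.77 to Ndc80 at -1.57, are all genes of mitosis.

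The mitotic genes were low in WT-EB too and high in SPEN-ISC. cdc2 was at 1.04 and 2.57 FPKM in WT-EB and at 39.8, 12.7 and 39.9 FPKM in SPEN-ISC. The list summed to 72.4, 68.6 and 96.4 FPKM in SPEN-EB, 40.7 and 52.1 FPKM in WT-EB, 554, 184 and 404 FPKM in SPEN-ISC and 176, 309 and 249 FPKM in WT-ISC. Divided by scale factors computed over all 11 libraries, the sums were 66.26, 79.55 and 80.68 in SPEN-EB and 77.38 and 76.75 in WT-EB. On that scale the 2 enteroblast groups overlapped. SPEN-ISC replicate 2 was the lowest of the depleted stem cell libraries. After scaling it stood at 194.7, below the WT-ISC libraries at 239.3, 213.2 and 220.1.

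Of the E(spl) complex and the Bearded family, targets of Notch, 16 genes were measured and 6 tested, 1 was called higher and 0 lower, and the median was 0.95. The called gene, E(spl)mgamma-HLH, was at 21.4, 13.3 and 24.4 FPKM in SPEN-EB and at 3.23, 5.34 and 2.405 FPKM in WT-ISC (2.33 ± 0.35, adjusted p = 0.0023). E(spl)mbeta-HLH, another repressor of the complex, was at 1214, 1278 and 1137 FPKM in SPEN-EB, against 800.3, 790.0 and 803 FPKM in WT-ISC (0.63 ± 0.42, adjusted p = 0.74). E(spl)malpha-BFM, of the Bearded family, was at 1229, 576 and 689 FPKM in SPEN-EB, against 378, 677 and 241 FPKM in WT-ISC (1.03 ± 0.46, adjusted p = 0.44). In unscaled FPKM the groups were apart for both HLH genes and overlapped for E(spl)malpha-BFM. Divided by the scale factors of the 11 libraries, E(spl)mbeta-HLH was at 1111, 1482 and 951.3 in SPEN-EB and 1087, 545.2 and 710.3 in WT-ISC. On that scale its groups overlapped, and only E(spl)mgamma-HLH of these 3 genes passed the test.

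Kaz-m1, which lies in the E(spl) complex (BDGP5, 3R, 21840446 to 21842209) and encodes a Kazal-type protease inhibitor, was at 194, 165 and 293 FPKM in SPEN-EB, against 23.1, 27.1 and 15.6 FPKM in WT-ISC (3.30 ± 0.41, adjusted p = 0.00057). It was at 45.5 and 57.7 FPKM in WT-EB and 47.7, 57.1 and 54.1 FPKM in SPEN-ISC, so that the SPEN-EB libraries were the highest of all 11. E(spl)mgamma-HLH was likewise highest in SPEN-EB, with 3.12 and 4.41 FPKM in WT-EB and 9.39, 7.005 and 5.85 FPKM in SPEN-ISC. E(spl)mbeta-HLH was at 722 and 622 FPKM in WT-EB and 1831, 2178 and 2221 FPKM in SPEN-ISC. In the fit with all 11 libraries its log2 difference was 0.05 for SPEN-EB over WT-EB and -0.48 for SPEN-EB over SPEN-ISC, and neither was called (adjusted p = 0.95 and 1). Scaling matters for such orders, since the factors that divide the FPKM of the 11 libraries were 0.525 and 0.679 in WT-EB, 1.09, 0.862 and 1.2 in SPEN-EB, 1.41, 0.946 and 1.55 in SPEN-ISC and 0.736, 1.45 and 1.13 in WT-ISC. Kaz-m1 and E(spl)mgamma-HLH were highest in SPEN-EB with and without this scaling. Of 22 measured genes of the core Notch pathway, 12 were tested and fng, a glycosyltransferase that modifies Notch, was the 1 called, higher by 1.98 on the log2 scale (adjusted p = 0.0301).

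The largest rise was that of CG15629, a gene named here by its annotation number. CG15629 was at 19.8, 26.3 and 60.2 FPKM in SPEN-EB and at 0.474, 0.1603 and 0.159 FPKM in WT-ISC (5.38 ± 0.43, adjusted p = 2.8e-05). CG30090, now named Erasp, was at 134, 404 and 588 FPKM in SPEN-EB and at 13.7, 6.36 and 9.06 FPKM in WT-ISC (5.05 ± 0.63, adjusted p = 0.0014). CG9360 was at 990.4, 916 and 755 FPKM in SPEN-EB and at 58.8, 34.6 and 43.3 FPKM in WT-ISC (4.32 ± 0.48, adjusted p = 0.00032). CG15629 was thus near the floor in the stem cell libraries, while CG30090 and CG9360 were low there and abundant in all SPEN-EB libraries. CG17145 rose by 3.91 on the log2 scale.

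Over the other groups these rises took unlike patterns. CG15629, CG30090 and CG17145 were also high in WT-EB, where CG15629 was at 26.8 and 20.6 FPKM, and low in SPEN-ISC, where it was at 1.15, 0.743 and 0.446 FPKM. CG17549 was at 9.69, 11.5 and 16.01 FPKM in SPEN-EB and 0.794, 0.307 and 0.381 FPKM in WT-ISC (3.67 ± 0.42, adjusted p = 0.00032), with 14.2, 8.61 and 11.8 FPKM in SPEN-ISC and 0.3597 and 0.111 FPKM in WT-EB. CG43182 was at 32.3, 4.15 and 3.86 FPKM in SPEN-EB and 6.71, 23.8 and 9.81 FPKM in SPEN-ISC, and listed at 0 in all WT-ISC and WT-EB libraries (adjusted p = 0.0066 for SPEN-EB over WT-ISC, and 0.0504 without WT-ISC replicate 1). For CG17549 and CG43182, each spen RNAi library was above every wild-type library, with and without scaling.

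**Figure D3:**
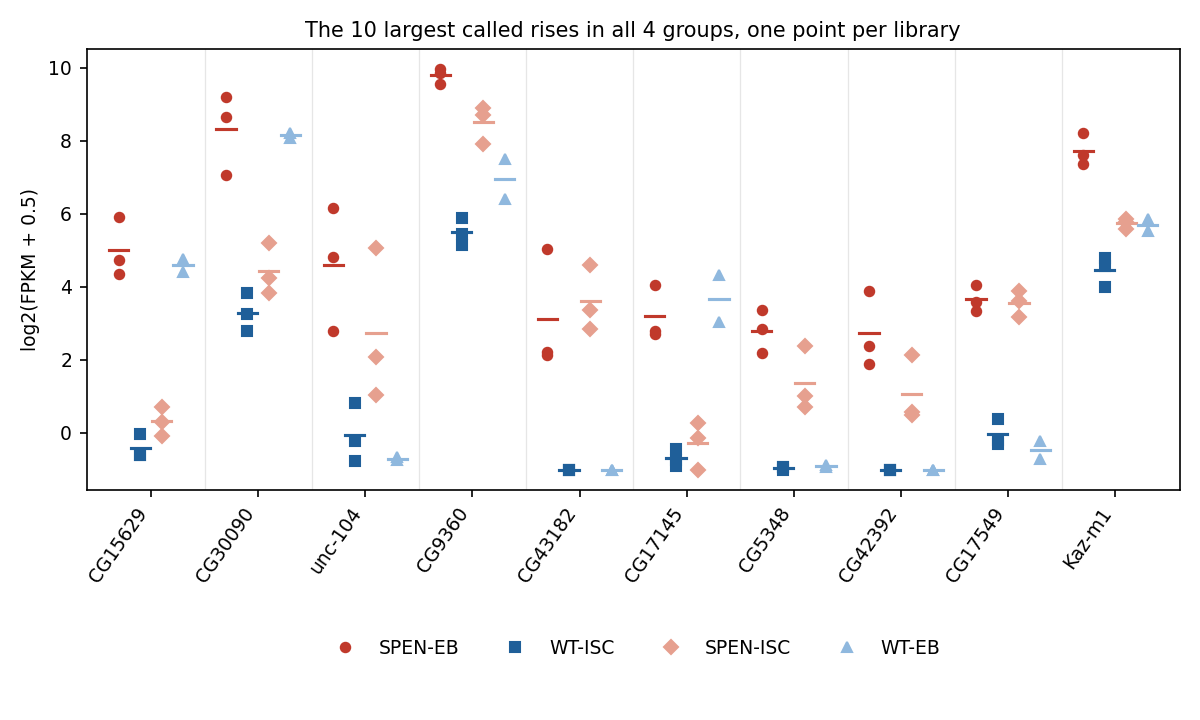
Level, as log2(FPKM + 0.5), of the 10 genes with the largest called rises in the libraries of all 4 groups, 1 point per library with the group mean as a bar. CG15629, CG30090 and CG17145 are high in both enteroblast groups, and CG17549 and CG43182 in both spen RNAi groups.

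A further 3 of these 10 rises came from 1 place in the genome. unc-104 (BDGP5, 2R, 12639004 to 12660002, minus strand), which encodes a kinesin that carries synaptic vesicle precursors, was at 70.9, 6.44 and 27.7 FPKM in SPEN-EB and at 0.0862, 1.28 and 0.365 FPKM in WT-ISC (4.74 ± 0.66, adjusted p = 0.0034). CG42392 (12652866 to 12653337, minus strand) was at 14.4, 3.19 and 4.75 FPKM in SPEN-EB and listed at 0 in WT-ISC (adjusted p = 0.00076). CG5348 (12654342 to 12656743, plus strand) was at 9.73, 4.09 and 6.67 FPKM in SPEN-EB and at 0.0216, 0.0219 and 0 FPKM in WT-ISC (3.77 ± 0.39, adjusted p = 0.00027). Both smaller genes lie between exons of unc-104, CG5348 on the opposite strand, so the 3 genes share 1 stretch of the genome and are not independent of each other. All 3 were highest in SPEN-EB replicate 1 and lowest, among the SPEN-EB libraries, in replicate 2.

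The neighbourhood of unc-104 was examined after these values were seen. Within 7 kb of the gene lie 14 annotated genes, unc-104 included, and for 10 of them every SPEN-EB library was above every WT-ISC library. These cover 27.9 kb, from 12632055 to 12660002. Sfp53D, at the lower end, is the first gene in the window, so that end was set by the window. The other end is the annotated 5′ end of unc-104. Not all of the 10 genes were tested, and among all tested genes the groups did not overlap for 16.2%, in either direction. The 4 that were tested were all called higher. The fourth is Acp53C14c, an accessory gland protein gene at 11.6, 2.27 and 3.37 FPKM in SPEN-EB and at 0, 0.341 and 0.424 FPKM in WT-ISC (2.88 ± 0.51, adjusted p = 0.0068). Of these 4, CG42392, CG5348 and Acp53C14c were below 1 FPKM in every WT-ISC library, so that the filter set their direction. The others, among them the accessory gland genes Acp53C14a, Acp53C14b and Acp53Ea, were too low for the test. Sod2, the next gene beyond the annotated 5′ end of unc-104, was not called (-0.48 ± 0.47, adjusted p = 0.91), and Arp53D and Vkor beyond it were listed at 0 in all 6 libraries.

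The exon bins of unc-104 were not covered alike. The 2 bins at its annotated 5′ end held 9, 0 and 1 counts in SPEN-EB and 0, 14 and 2 in WT-ISC. All other bins held 16234, 1325 and 6017 counts in SPEN-EB, against 15, 266 and 76 in WT-ISC, so that the rise lay downstream of the 5′ end. In SPEN-ISC the other bins held 823, 288 and 7385 counts and in WT-EB 28 and 22. Each spen RNAi library had more counts in them than any wild-type library.

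**Figure D4:**
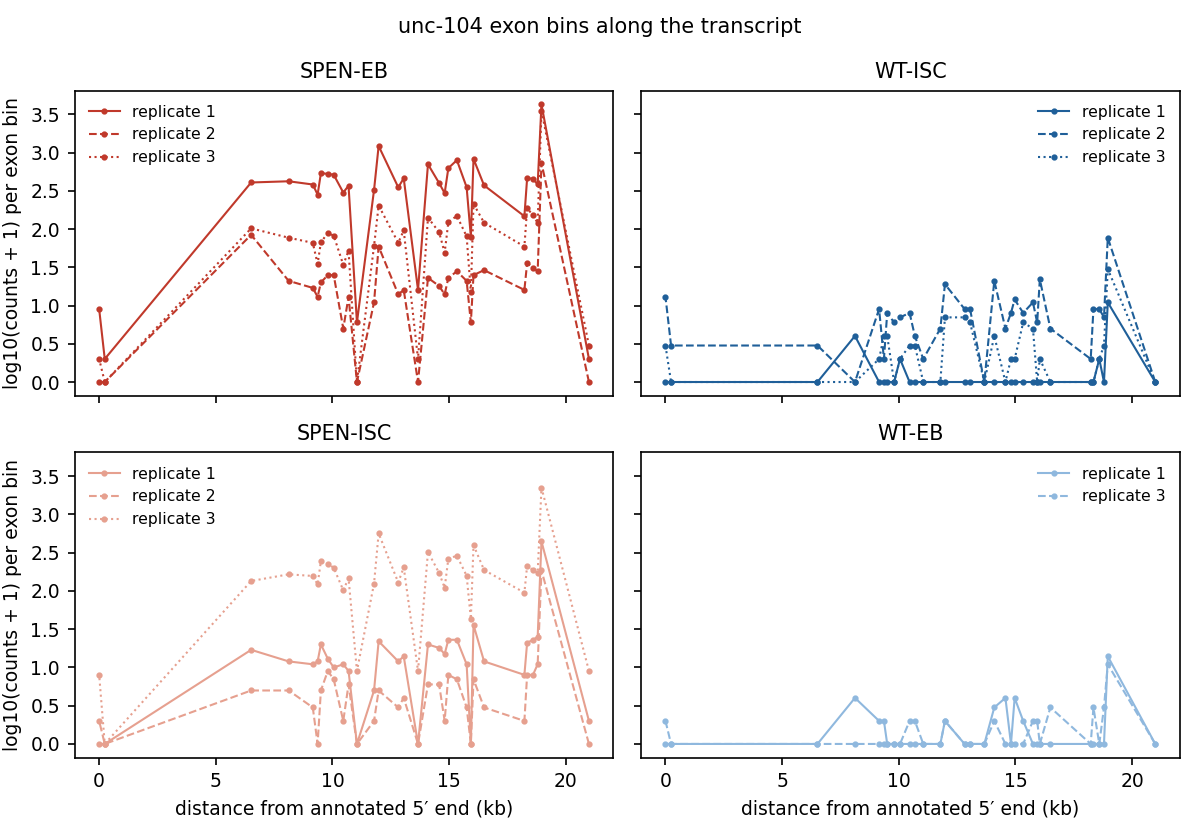
Counts per exon bin of unc-104, as log10(counts + 1), against the distance of the bin from the annotated 5′ end of the gene in kb, for each library of the 4 groups. Bins differ in length, and the 2 bins at the 5′ end hold at most 9 counts in SPEN-EB, against 16234, 1325 and 6017 in the others.

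Cytochromes P450 are oxidases of which many act on toxins and hormones. Of 86 measured cytochrome P450 genes, 42 were tested, 3 were called higher and 0 lower, and the median was 0.50. Cyp6a23 was at 515, 390.2 and 278 FPKM in SPEN-EB and at 37.2, 51.1 and 67.2 FPKM in WT-ISC (2.94 ± 0.43, adjusted p = 0.0021). Its neighbour and relative Cyp6a17 was at 36.5, 26.2 and 16.6 FPKM in SPEN-EB and at 3.72, 4.101 and 7.92 FPKM in WT-ISC (2.26 ± 0.42, adjusted p = 0.0083), and reads may be split between such close copies. Both were highest in SPEN-EB over all 11 libraries, with and without scaling, with Cyp6a23 at 34.7 and 73.9 FPKM in WT-EB and 78.7, 145 and 100.1 FPKM in SPEN-ISC. Cyp9b1 rose by 1.88 (adjusted p = 0.031) but was not called in 7 of 18 alternative analyses, among them those without SPEN-EB replicate 1 (0.104), SPEN-EB replicate 2 (0.19) or WT-ISC replicate 3 (adjusted p = 0.0703).

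Of 46 measured genes of glutathione transferases and redox control, 41 were tested, 2 were called higher and 1 lower, and the median was 0.75. GstE10 was at 3.16, 5.45 and 6.92 FPKM in SPEN-EB and at 0.5605, 0.878 and 0.565 FPKM in WT-ISC (2.26 ± 0.41, adjusted p = 0.0073). GstE2, of the same gene cluster, rose by 2.09 (adjusted p = 0.016), and GstS1 fell by 1.88 (adjusted p = 0.0297). The groups did not overlap for these 3 genes. The filter had set this for GstE10, which was below 1 FPKM in every WT-ISC library. The calls of all 3 genes were fragile. GstE10 was not called without SPEN-EB replicate 2 or SPEN-EB replicate 3 (adjusted p = 0.056 and 0.061). GstE2 was not called without SPEN-EB replicate 1, SPEN-EB replicate 2 or WT-ISC replicate 3 (adjusted p = 0.089, 0.11 and 0.056). GstS1 was not called without SPEN-EB replicate 1, SPEN-EB replicate 3 or WT-ISC replicate 1 (adjusted p = 0.094, 0.17 and 0.057).

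Of 19 tested genes of the Imd pathway and antimicrobial peptides, pirk, an inhibitor of Imd signalling, was the 1 called. It was at 68.7, 62.4 and 54.97 FPKM in SPEN-EB and at 5.64, 20.1 and 3.79 FPKM in WT-ISC (2.97 ± 0.46, adjusted p = 0.0028). Of 14 tested genes of septate junctions and polarity, 2 were called higher. They were CG31004, now named mesh, a component of the gut's smooth septate junction (2.17, adjusted p = 0.021), and M6 (1.41, adjusted p = 0.036), and neither was called without SPEN-EB replicate 2 or without SPEN-EB replicate 3. Of 20 tested subunits of the vacuolar proton pump, 19 had a positive fold change and none of these was called. The remaining subunit, VhaM9.7-a, was called lower, listed at 0 in SPEN-EB and at 10.97, 6.79 and 1.93 FPKM in WT-ISC (adjusted p = 0.0056).

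Several large gene groups gave no call with limma. Among them were 83 tested genes of cytoplasmic and 72 of mitochondrial ribosomal proteins, and 0 of the cytoplasmic and 1 of the mitochondrial genes had an unadjusted p below 0.05. Neither edgeR nor DESeq2 called any of them. The 40 tested digestive enzymes had a median of 0.16, 10 with an unadjusted p below 0.05, 0 called by edgeR and 1 by DESeq2. Their sum, a sign of enterocyte RNA, was 6832, 6448 and 8009.8 FPKM in SPEN-EB and 3976, 8587 and 5968 FPKM in WT-ISC, and the groups overlapped. Divided by the scale factors of the 11 libraries, it was 6252, 7479 and 6702 in SPEN-EB and 5402, 5926 and 5279 in WT-ISC. On that scale every SPEN-EB library lay above every WT-ISC library. The unscaled sum was 779.8 and 1127 FPKM in WT-EB and 14813, 9538 and 4828 FPKM in SPEN-ISC, so that WT-EB held less of it than every other library. The part of enterocyte RNA in the differences between SPEN-EB and either WT-EB or WT-ISC was not tested.

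**Figure D5:**
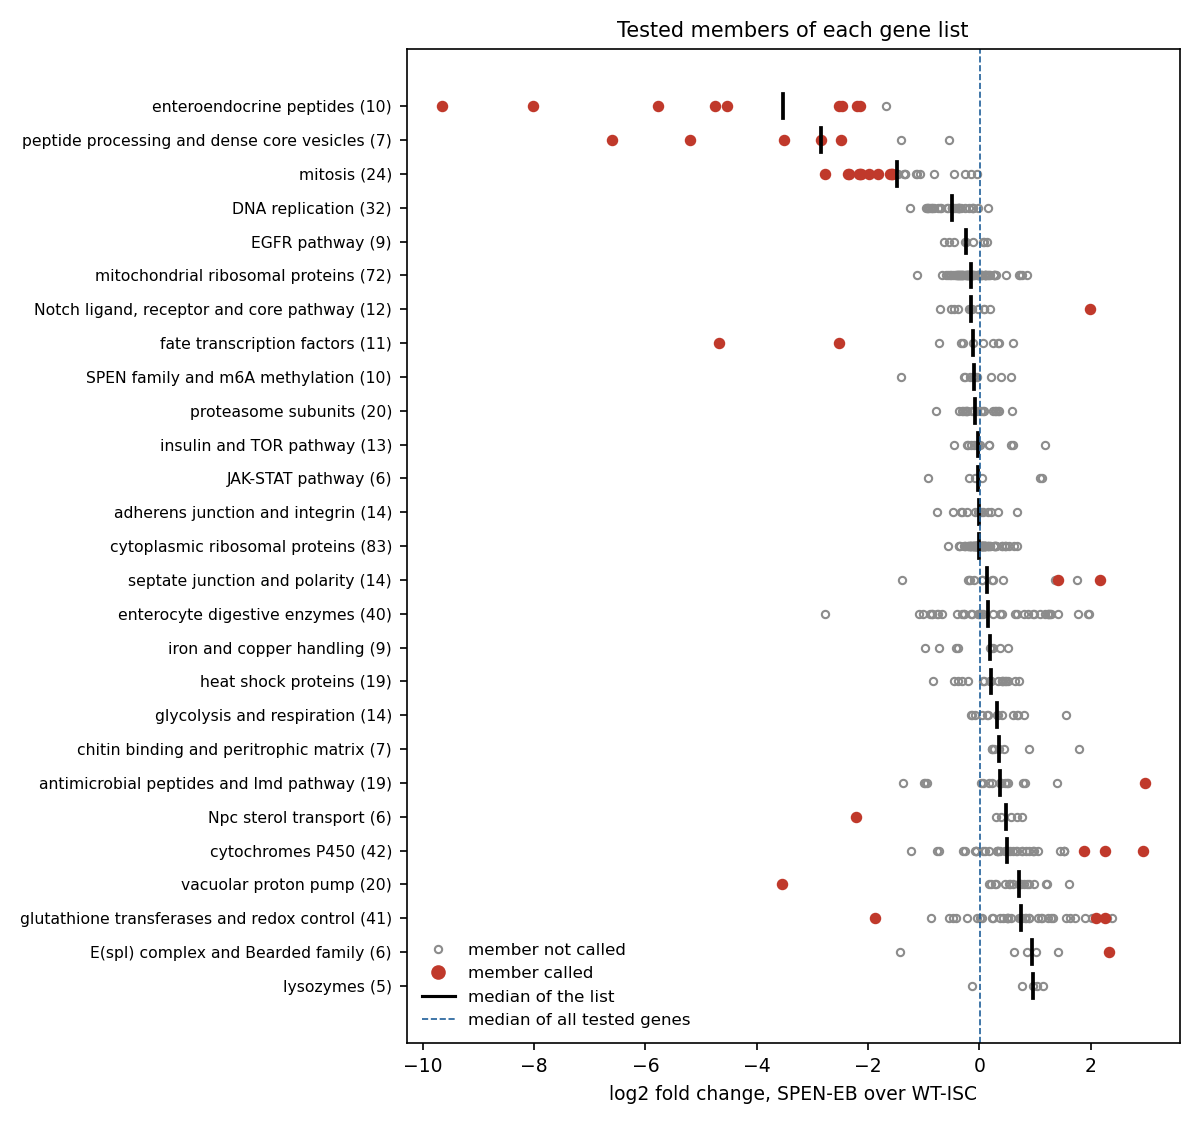
Log2 fold change, SPEN-EB over WT-ISC, of the tested members of each gene list with at least 5 of them, with called members in red, the list's median as a black bar and the median of all tested genes (0.02) as a dashed line. Peptide hormones (-3.53), peptide processing (-2.85) and mitosis (-1.48) have the lowest medians.

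The called genes were then placed by the other groups, in a description devised after they had been seen and given with no test. For each gene the midpoint of the SPEN-EB and WT-ISC means was taken, on the log2(FPKM + 0.5) scale. Of the 117 genes lower in SPEN-EB, 84 (71.8%) had both WT-EB libraries on the SPEN-EB side of the midpoint, 18 on the WT-ISC side and 15 were split, beside 33.4% on the SPEN-EB side among all tested genes with a negative fold change. Of the 69 genes higher in SPEN-EB, 25 (36.2%) had both WT-EB libraries on the SPEN-EB side, 31 on the WT-ISC side and 13 were split, beside 40% among all tested genes with a positive fold change. The 36.2% became 18% with no scaling and 19.6% without SPEN-EB replicate 3. All SPEN-ISC libraries were on the SPEN-EB side for 13 of the 117 lower genes (11.1%, beside 10.4% among all tested genes with a negative fold change) and for 4 of the 69 higher genes (5.8%, beside 8.99% among those with a positive one).

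Some called genes had all SPEN-ISC libraries on the SPEN-EB side and both WT-EB libraries on the WT-ISC side. They made up 5.8% of the genes called higher and 7.69% of those called lower, close to the 5.79% and 7.77% of all tested genes with that sign, so their number is not a result about the called genes. The 4 higher ones were CG17549, pirk, CG42489 and CG43182, and pirk was at 32.5, 161 and 65.3 FPKM in SPEN-ISC and 3.81 and 4.39 FPKM in WT-EB. The 9 lower ones were Aats-ser, CG5867, CG11190, CG9377, fbp, CG33774, su(r), CR43855 and CR43957. Of these, Aats-ser, a seryl-tRNA synthetase gene, was at 1.77, 1.57 and 1.79 FPKM in SPEN-EB and 2.45, 1.57 and 1.695 FPKM in SPEN-ISC, against 6.49 and 7.89 FPKM in WT-EB and 6.71, 6.499 and 8.75 FPKM in WT-ISC. fbp, which encodes the gluconeogenic enzyme fructose bisphosphatase, was at 5.48, 9.07 and 3.42 FPKM in SPEN-EB and 5.26, 10.6 and 6.94 FPKM in SPEN-ISC, against 12.3 and 14.6 FPKM in WT-EB and 29.6, 26.4 and 24.2 FPKM in WT-ISC. For both genes every spen RNAi library was below every wild-type library, with and without scaling.

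In a fit with all 11 libraries, 38 of the 43 genes named by rule were tested against the groups that share cell type or genotype with SPEN-EB. Over WT-EB, 5 were called, all higher in SPEN-EB, where 0.823% of all tested genes were called. These were CG17549, CG5348, CG42392, unc-104 and CG43182, the first with a log2 fold change of 3.78. None of the 5 was called without WT-EB replicate 3, and of them only CG17549 was called without WT-EB replicate 1. A further WT-EB library, left out by the study because it did not cluster with the others, was not analysed here, and the spread of WT-EB may be too small. Over SPEN-ISC, 22 were called, 6 higher and 16 lower in SPEN-EB, where 1.19% of all tested genes were called, and 11 of the 22 lost the call without 1 library. Both contrasts share the SPEN-EB libraries with the comparison to WT-ISC.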

How the data were processed

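RNA of sorted midgut cells was sequenced in 4 groups, 11 libraries in all, with 3 biological replicates per group in the labels, of which 2 of WT-EB were analysed. The labels name a Ribo-Zero kit beside poly(A) selection and the study's methods name oligo-dT, so the selection is uncertain. Per the labels and methods, the authors aligned reads with TopHat2 2.0.6 to BDGP5 (release 5.54) and deposited gene levels as FPKM. The authors counted reads per exon bin, with strand, and deposited those counts unnormalised. The authors' columns of fold changes and p-values (DESeq2 and DEXSeq), 8 group means, 6 fitted group values and 16 further per-sample columns were not used.

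Libraries were scaled to each other with trimmed log ratios of their FPKM (30% of ratios and 5% of levels trimmed), a pseudocount of 0.5 was added, and genes with at least 1 FPKM in 3 of 6 libraries were tested with limma 3.58.1 (R 4.3.3; variance trend, robust prior, Benjamini-Hochberg adjustment over all tested genes, threshold 0.05). Scripts were tested on simulated data, where the target for large falls was reset to the log2(FPKM + 0.5) scale after a first run had missed it. Alternatives, 18 in all, included edgeR 4.0.16 and DESeq2 1.42.0 on exon bin counts summed per gene, and 1 of them, a covariate of genes detected, was chosen after seeing the data. FPKM carry no interval for counting error, so errors are between libraries.

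Genes were named by rule: 12 markers, the 10 largest called and non-overlapping changes in each direction with at least 5 FPKM in the higher group, and up to 4 called members of each list with at least 3. Genes named beyond it were chosen after their values were seen. The comparison and the lists were chosen with earlier results of these data known. Current symbols were matched by gene ID for 181 of the 186 called genes, and 33 differed.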

Additional observations from a re-analysis of the deposited data

How the results depend on the processing

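All 186 called genes kept their direction in every one of the 18 alternatives that tested them. For each of these genes the SPEN-EB and WT-ISC ranges were apart in unscaled FPKM. Leaving out 1 library or changing the pseudocount could therefore hardly turn a sign, so the kept direction says little about the processing. The number of calls moved more. It was 101 with no filter on low values (29 higher, 72 lower), 119 with a filter at 5 FPKM (63 lower), 449 with DESeq2 on counts (150 higher, 299 lower) and 180 with edgeR, which shared 127 of the 186. A covariate of genes detected, chosen after seeing the data, gave 433 (178 higher, 255 lower). The cause of these shifts was not tested. Leaving out 1 library gave 113 to 212 calls, 43 to 84 higher and 66 to 140 lower, and higher genes made up 53.2% of calls without SPEN-EB replicate 1, beside 69 of 186 with every library. It moved esg between -1.51 and 0.15 and Sox21a between -0.15 and 1.04. Members called lower numbered 5 to 10 over all alternatives for peptide hormones, 2 to 11 for peptide processing and 7 to 20 for mitosis. The percentage of higher genes with WT-EB on the SPEN-EB side was 18 with no scaling. Of 675 comparisons of single named genes with an alternative, 640 kept direction and call, 29 lost the call, 3 gained it (polo) and 3 changed sign (esg and Sox21a).

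Replicate numbers are shared between the groups, and the deviations of same-numbered libraries correlated at -0.58, -0.63 and 0.06. The highest values were 0.65 for SPEN-EB replicate 1 with WT-ISC replicate 2, and 0.59 for SPEN-EB replicate 2 with WT-ISC replicate 1. Within their groups these libraries had the most and the fewest genes at 1 FPKM. The correlations therefore cannot decide whether same-numbered libraries were paired. With the replicate block 127 genes were called, 45 higher and 82 lower, and 124 of them were among the 186.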

Other observations

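A further 3 called genes outside the lists were chosen after their values were seen. Cbs, the cystathionine synthase gene, was at 0.904, 1.01 and 0.822 FPKM in SPEN-EB and 13.5, 9.47 and 9.103 FPKM in WT-ISC (-2.94 ± 0.43, limma adjusted p = 0.0019). CG6188, now named Gnmt, a methyltransferase that uses S-adenosylmethionine, was at 0, 0.0458 and 0 FPKM in SPEN-EB and 9.81, 6.55 and 5.96 FPKM in WT-ISC (-3.90 ± 0.45, adjusted p = 0.00033). Eip55E, now named Cth, which acts after Cbs, was at 221, 169 and 142 FPKM in SPEN-EB and 44.6, 52.6 and 58.2 FPKM in WT-ISC and rose by 1.78 (adjusted p = 0.0301). No SPEN-EB library overlapped the WT-ISC range for these 3 genes. The filter had set this for CG6188, which was below 1 FPKM in every SPEN-EB library. In WT-EB, Cbs was at 0.801 and 0.981 FPKM and Eip55E at 103 and 88.1 FPKM, and after scaling both libraries lay on the SPEN-EB side of the midpoint for each gene.

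Other called genes outside the lists included Arc1, which encodes a capsid-like protein, at 282, 251 and 296 FPKM in SPEN-EB and 27.5, 79.3 and 105 FPKM in WT-ISC (2.19 ± 0.43, adjusted p = 0.012). bw, an ABC transporter gene known from eye pigment, was at 2.36, 2.06 and 0.756 FPKM in SPEN-EB and 28.7, 31.02 and 31.7 FPKM in WT-ISC (-3.84 ± 0.41, adjusted p = 0.00028), and at 0.836 and 0.9698 FPKM in WT-EB. The microsomal glutathione transferase gene Mgstl rose by 2.12 and the UDP-glycosyltransferase gene Ugt35a by 1.91 on the log2 scale. CG31030, a relative of a proton pump accessory subunit, was listed at 0 in SPEN-EB and was at 4.93, 2.81 and 2.25 FPKM in WT-ISC (adjusted p = 0.0038).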
